A study of Homo sapiens with 9 samples.

Results

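The genes described here encode the proteasome, the factors that assemble and cap it, and a pair of transcription factors that act on its genes. They were taken by symbol: protein-coding genes named PSMA, PSMB, PSMC, PSMD, PSME, PSMF or PSMG with a number, without PSMC3IP and pseudogenes, plus POMP, ADRM1, SEM1, NFE2L1 and NFE2L2. That gave 54 of the 60683 gene IDs in the files, of which 19910 were protein-coding. The libraries of total RNA came from HEK293T, a human embryonic kidney line, in 3 forms with 3 replicates each. Parental cells carried no integrated reporter. Clones 15 and 37 carried a pair of constructs integrated by the piggyBAC transposon system, ATG-(CAG)60-Myc-NLuc, a luciferase reading frame behind 60 CAG units, and ATG-(CAG)0-Myc-FLuc, its partner with 0 units. Clone 15 was picked for low and clone 37 for high expression of both. Each clone grew from 1 sorted cell and stands alone at its level, so the level of the reporter and the history of the clone cannot be told apart. All 3 lines grew in the same medium with serum and antibiotics.

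The proteasome degrades proteins that carry ubiquitin chains. Its 20S core is a barrel of outer alpha rings and inner beta rings, and the beta subunits PSMB5, PSMB6 and PSMB7 cut the substrate. The 19S cap holds a ring of ATPases, PSMC1 to PSMC6, that unfolds substrates and threads them into the core. Non-ATPase subunits of the cap bind the ubiquitin chain and remove it. Dedicated chaperones, among them POMP and the PSMG proteins, build the particle. NFE2L1 and NFE2L2 are transcription factors that bind antioxidant response elements, and NFE2L1 raises the genes of most subunits when proteasome activity falls.

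Levels are written as CPM, the counts of a gene per 1000000 counts of its library, with library sizes scaled by TMM (trimmed mean of M-values). Gene counts summed to 10334090 to 13902872 per library in parental cells and clone 37 and to 18654063 to 38093340 in clone 15. Reads were 75 bp in parental cells and clone 37 and 100 bp in clone 15, so read length cannot be told apart from clone in any comparison with clone 15. Reads mapping to several places made up 4.59% to 5.98% of pairs in clone 15 and 10.4% to 14.0% elsewhere. Parental replicate 2 stood apart from its group: over genes, chi-square per degree of freedom was 10.2 and 10.3 against the other parental libraries, which differed from each other by 1.88. In clone 15 replicate 2 gave 9.05 and 7.43 against the others, which differed by 4.24, and in clone 37 the pairs gave 1.68 to 1.83. Pairs with no annotated exon on the counted strand made up 33.7% to 34.6% in clone 15 and 19.2% to 29.9% elsewhere. Of the markers chosen for the kidney line, VIM (501 to 620 CPM), PAX2 (7.14 to 12.55) and LHX1 were detected in all 9 libraries. Of those chosen for other cell types, CD3E and HBB were at 0, and ALB and PTPRC read up to 0.29 and 0.09 CPM. EPCAM and COL1A1, also chosen for other cell types, read 0.381 to 2.66 and 18.4 to 109 CPM. Some markers separated the lines. NEFM read 471 to 668 CPM in parental cells, 2604 to 2818 in clone 15 and 135 to 138 in clone 37. NEFL read 211 to 271, 704 to 725 and 60.1 to 61.1. CDH2 read 119 to 145, 107 to 116 and 65.2 to 71.6 CPM, LHX1 9.69 to 12.5, 13.4 to 14.5 and 19.2 to 23.5, and COL1A1 34.7 to 35.2, 48.4 to 109 and 18.4 to 20.8. Their part in the results was not tested. Nothing in the labels says that replicates were separate cultures, so p-values measure the spread between these libraries, which may be technical. In bulk RNA a smaller share of cells expressing a gene and less RNA per cell cannot be told apart.

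Most proteasome genes that changed in either clone were higher than in parental cells, by less than 2-fold in every case. A gene is called here when edgeR's quasi-likelihood test gave a Benjamini-Hochberg adjusted p under 0.05 over all genes tested. Of the 54 genes, 49 had enough counts to be tested in each comparison, and PSMA8, PSMB8, PSMB9, PSMB10 and PSMB11 did not. In clone 37 against parental cells 25 of 49 rose and 5 fell, which is 61.2% called, 51.0% higher and 10.2% lower. Over all 16501 genes tested there, 54.0% were called, 26.7% higher and 27.3% lower. All 49 genes are protein-coding, and of the protein-coding genes tested 59.7% were called in clone 37 and 56.5% in clone 15, and 63.1% in the comparison of the clones. The median log2 fold change was 0.18 for the 49 genes and 0.02 for all genes. In clone 15 against parental cells 29 rose and 6 fell, or 71.4% called, 59.2% higher and 12.2% lower, beside 51.4% of all 17703 genes, 25.1% higher and 26.2% lower. There the medians were 0.24 and 0.02. The clones share the parental libraries, so these counts are not independent of each other. Between the clones, clone 37 had 15 genes above and 21 below clone 15, or 73.5% called, beside 57.7% of 17712 genes, 28.7% higher and 29.0% lower, with medians of -0.08 and 0.00. The largest fold was 1.86 in clone 37 against parental cells, 1.77 in clone 15 against parental cells and 1.91 between the clones. Without parental replicate 2, clone 37 had 28 genes higher and 5 lower and clone 15 had 30 and 5, with medians of 0.23 and 0.33. Without clone 15 replicate 2, clone 15 had 29 higher and 4 lower, and clone 37 had 14 above and 23 below clone 15, with medians of 0.28 and -0.11.

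**Figure D1:**
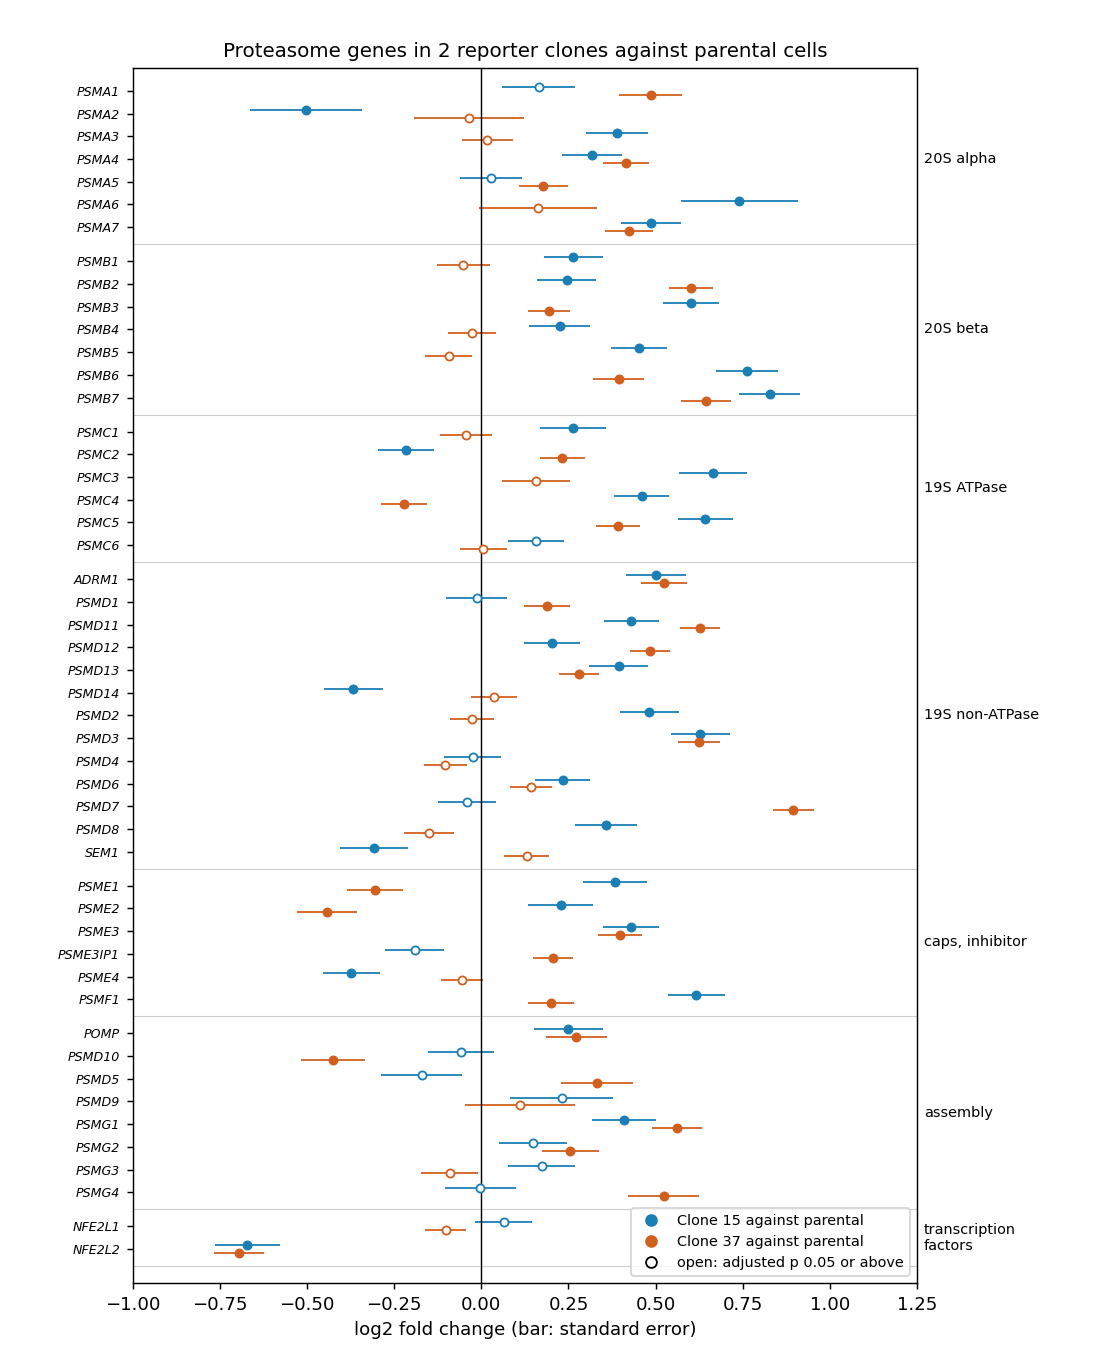
Log2 fold change (x axis, bars 1 standard error) of the 49 tested genes in clone 15 and clone 37 against parental cells, grouped by role; filled points have an adjusted p under 0.05. All 7 beta ring genes are filled and right of 0 in clone 15, PSMD7 lies at 0.89 in clone 37 and near 0 in clone 15, and NFE2L2 lies near -0.7 in each clone.

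Promoter sequence bears on these genes because NFE2L1 and NFE2L2 bind antioxidant response elements. Windows from 250 bases before to 50 bases after the transcript start, from RefSeq on GRCh38.p14, were had for 48 of the 54 genes. The element's core TGACNNNGC, with N any base and read on both strands, was in a window of 17 of the 48 (35.4%) and of 16.1% of 27305 genes. Those 27305 are all genes with a window, and were not matched to the 48 in gene type or GC content. Counted by window, it was in 28.6% of 63 windows and in 13.3% of 35116. The wider TGANNNNGC, which every match of the first also meets, was in 66.7% of the 48 and in 47.1% of all genes. Of the 22 genes with a window that rose in clone 37, 10 held the core, and of the 25 that rose in clone 15, 10 did. A match describes letters and is not a binding site. The 7 genes below were chosen by result: they held the core upstream of a start and were called higher in each clone. Other genes with the core upstream fell: PSME4 and SEM1 were called lower in clone 15, and PSME1 and PSME2 lower in clone 37 and higher in clone 15. PSMD5 and PSMG2 were called higher in clone 37 alone, PSMD9 was called in neither clone and PSMB9 was not tested. Each line gives 49 bases in the direction of the gene with the core in capitals.
ADRM1: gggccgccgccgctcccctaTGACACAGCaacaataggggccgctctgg
PSMA4: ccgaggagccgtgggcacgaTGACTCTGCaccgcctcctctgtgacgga
PSMB3: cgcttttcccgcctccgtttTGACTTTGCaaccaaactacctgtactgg
PSMC5: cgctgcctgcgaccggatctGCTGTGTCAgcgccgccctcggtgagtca
PSMD12: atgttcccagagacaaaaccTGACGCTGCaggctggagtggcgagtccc
PSMD3: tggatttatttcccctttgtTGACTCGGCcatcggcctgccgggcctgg
PSMG1: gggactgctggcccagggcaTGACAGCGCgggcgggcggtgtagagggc
The stretches lie at chr20:62302739-62302787 (ADRM1), chr15:78540640-78540688 (PSMA4), chr17:38752617-38752665 (PSMB3), chr17:63827644-63827692 (PSMC5), chr17:67366714-67366762 (PSMD12), chr17:39980750-39980798 (PSMD3) and chr21:39183606-39183654 (PSMG1). PSMD12 and PSMG1 are on the minus strand and the others on the plus strand. PSMC5 carries the core on the strand opposite to the gene, so its capitals read as the reverse complement. The core began 37 bases before a start in PSMD3, 57 in PSMC5 and 104 in PSMB3. It began 126 bases before a start in PSMA4, 137 in ADRM1, 165 in PSMD12 and 183 in PSMG1. In ADRM1 the same core began 238 bases before another start, and PSMA4 and PSMC5 had windows of other starts without it. By the gene positions of GENCODE 29, the stretches of ADRM1, PSMA4, PSMC5 and PSMG1 lie within the span of the gene.

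The alpha ring gates the entry to the core. In clone 37, 4 of its 7 tested genes rose and none fell (PSMA1, PSMA4, PSMA5 and PSMA7, median 0.18). In clone 15, 4 rose and PSMA2 fell (median 0.32). PSMA7 was the highest alpha gene per kilobase of transcript, with 112 ± 15.0 CPM per kilobase (SD, n = 3) in parental cells. PSMA7 stood at 100.3, 128 and 105 CPM in the parental libraries, 151, 160.2 and 157 in clone 15 and 149.6, 149.8 and 148 in clone 37. Every library of either clone was above every parental library, and edgeR's log2 fold change was 0.42 ± 0.07 (SE, adjusted p = 5.47e-05) in clone 37 and 0.49 ± 0.09 (adjusted p = 4.46e-05) in clone 15. With trends in GC content and length removed, the value in clone 15 was 0.19 (adjusted p = 0.124), so that call was lost. Relative to the genes around it PSMA7 was at 0.23 in clone 37 (edgeR, adjusted p = 0.0183) and 0.22 in clone 15 (adjusted p = 0.0404).

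PSMA6 was the lowest of the 7 tested alpha genes per kilobase in parental cells, at 5.29 ± 0.569. Of its exon bases 81.0% also belong to another gene on the same strand, where the authors' counting drops reads. PSMA6 read 5.63, 4.79 and 5.91 CPM in parental cells, 10.3, 7.43 and 9.51 in clone 15 and 6.13, 6.57 and 5.61 in clone 37. The clone 15 libraries lay above all others. PSMA6 rose by 0.74 ± 0.17 on the log2 scale in clone 15 (edgeR, adjusted p = 0.000655), and was lower by -0.58 ± 0.15 in clone 37 than in clone 15 (adjusted p = 0.00170). Against the genes around it the difference between the clones was -0.13 (adjusted p = 0.509), and PSMA6 was called higher in clone 37 than in parental cells, by 0.53 (edgeR, adjusted p = 0.0149). PSMA2, with 52.5% of its exon bases shared, read 10.4, 7.22 and 9.93 CPM in parental cells, 6.78, 6.31 and 6.29 in clone 15 and 8.41, 8.95 and 9.43 in clone 37. Clone 15 lay below both other groups in every library. Its fall in clone 15 was -0.50 ± 0.16 (edgeR, adjusted p = 0.0108), and its excess in clone 37 over clone 15 was 0.47 ± 0.14 (adjusted p = 0.00425). Against the genes around it on the chromosome the PSMA2 fall was -0.20 (adjusted p = 0.33), removing GC and length trends left -0.31 (adjusted p = 0.112), and without parental replicate 1 its adjusted p was 0.0658. PSMA1 had 53.2% of its exon bases shared.

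In the catalytic beta ring all 7 genes rose in clone 15 (median 0.45), and 4 of 7 rose in clone 37 with none lower (PSMB2, PSMB3, PSMB6 and PSMB7, median 0.19). The clone 15 count was 4 of 7 without parental replicate 1 and also without parental replicate 3, as PSMB1, PSMB2 and PSMB4 lost the call, and 4 of 7 with unstranded counts. Against the genes around them PSMB1 and PSMB2 lost it, and with trends in GC content and length removed PSMB4 did. In clone 37, PSMB3 and PSMB6 lost the call against their neighbours and PSMB1 was called lower, by -0.24 (edgeR, adjusted p = 0.0238). After removal of trends in GC content and length, PSMB3 lost the call, PSMB5 was called lower and the ring's median in clone 37 was 0.05. Between the clones 6 of 7 were lower in clone 37 and PSMB2 was higher, and against their neighbours 4 were lower, with PSMB4 and PSMB5 not called. Levels in parental cells spanned 46.8 CPM per kilobase for PSMB2 to 149 for PSMB4.

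PSMB7 encodes the subunit with trypsin-like activity and lies at chr9:124353466-124415444 on the minus strand (GENCODE 29, GRCh38). It read 72.5, 91.1 and 75.2 CPM in parental cells, 144, 133 and 148 in clone 15 and 129, 115 and 129 in clone 37. Each clone lay above all parental libraries. The log2 fold change was 0.83 ± 0.09 in clone 15 (edgeR, adjusted p = 2.24e-08) and 0.64 ± 0.07 in clone 37 (adjusted p = 9.43e-07), while the 100 tested genes around PSMB7 had medians of 0.15 and 0.17. Between the clones the difference was -0.18 ± 0.06 (adjusted p = 0.00952), and it was -0.13 (adjusted p = 0.125) without clone 37 replicate 2 and -0.08 (adjusted p = 0.159) with trends in GC content and length removed.

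PSMB6, the caspase-like subunit, read 49.0, 60.6 and 50.0 CPM in parental cells, 86.3, 91.8 and 93.6 in clone 15 and 70.6, 70.2 and 68.9 in clone 37. The 3 groups did not overlap, with clone 15 highest. PSMB6 rose by 0.76 ± 0.09 in clone 15 (edgeR, adjusted p = 9.98e-08) and by 0.39 ± 0.07 in clone 37 (adjusted p = 0.000178), and clone 37 was lower than clone 15 by -0.37 ± 0.06 (adjusted p = 7.07e-06). Relative to the genes around it on chromosome 17, the value in clone 37 was 0.07 (adjusted p = 0.53), so that call was lost on this scale, and in clone 15 it was 0.38 (adjusted p = 0.00108). With trends in GC content and length removed PSMB6 was at 0.45 in clone 15 (edgeR, adjusted p = 0.00268) and -0.20 between the clones (adjusted p = 0.000839).

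PSMB5, the chymotrypsin-like subunit that proteasome inhibitors such as bortezomib bind, lies at chr14:23016543-23035230 on the minus strand. It read 86.8, 100.1 and 90.4 CPM in parental cells, 126, 131 and 123 in clone 15 and 90.1, 78.4 and 91.1 in clone 37. Clone 15 was above both other groups in every library, and parental cells and clone 37 overlapped. PSMB5 rose by 0.45 ± 0.08 in clone 15 (edgeR, adjusted p = 3.95e-05), was at -0.09 ± 0.07 in clone 37 (adjusted p = 0.255), and differed between the clones by -0.55 ± 0.06 (adjusted p = 1.29e-08). In clone 15 the value was 0.19 (adjusted p = 0.0488) against the genes around it and 0.24 (adjusted p = 0.00892) with trends in GC content and length removed. The genes around PSMB5 had a median of -0.43 in clone 37 against parental cells and -0.67 against clone 15. Against those genes PSMB5 was at 0.31 in clone 37 (adjusted p = 0.00158) and at 0.12 between the clones (adjusted p = 0.104). With trends in GC content and length removed it was called lower in clone 37, by -0.19 (edgeR, adjusted p = 0.0449). The part of neighbours, GC content and length in the result was not tested.

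**Figure D2:**
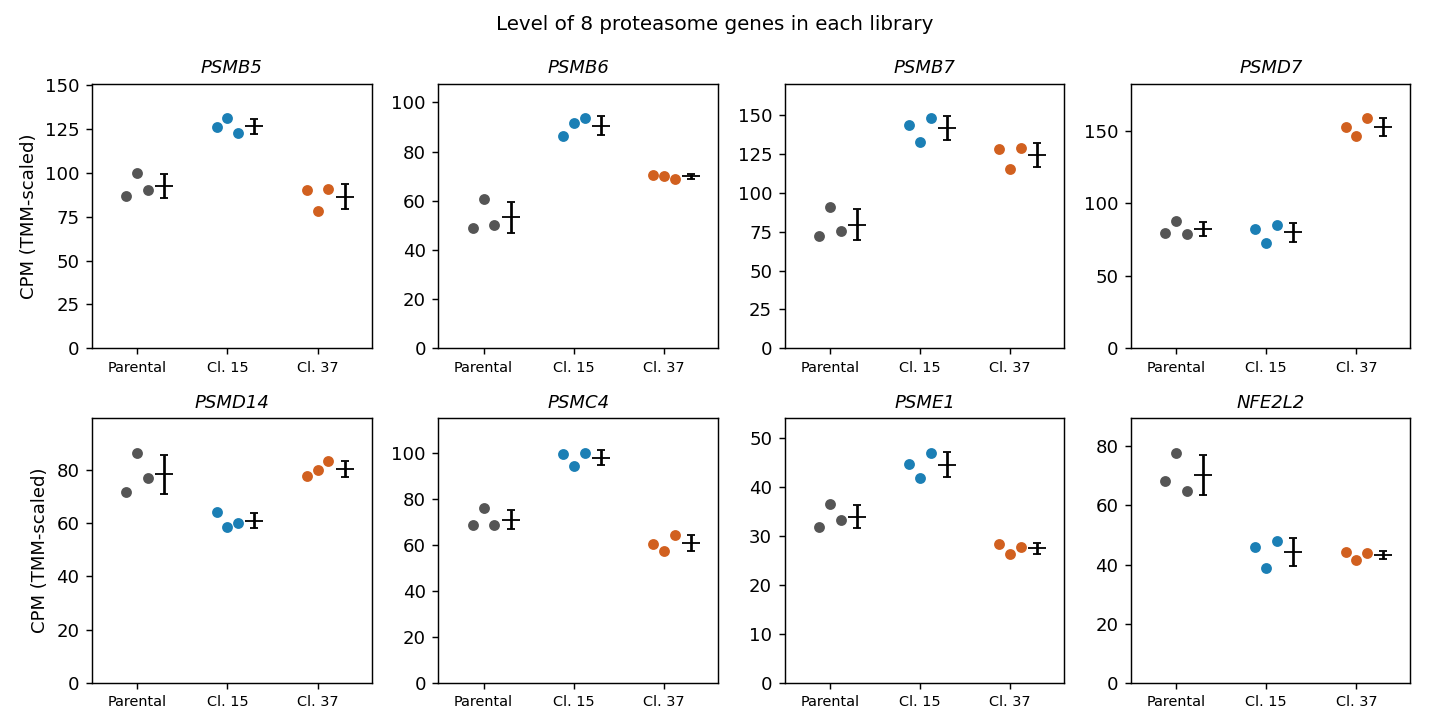
CPM (y axis, from 0) of 8 genes in each library by group; points are libraries, bars the mean with 1 SD. PSMB5, PSMB6 and PSMB7 are highest in clone 15, PSMD7 is high in clone 37 alone, PSMC4 and PSME1 lie above parental cells in clone 15 and below in clone 37, and NFE2L2 is low in both clones.

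Immunoproteasome subunits, which replace the catalytic subunits in cells exposed to interferon, were near 0. PSMB8 had 0 to 1 count per library in parental cells, 3 to 5 in clone 15 and 2 to 3 in clone 37, and 3 counts correspond to 0.0789 to 0.285 CPM across libraries. PSMB9 read 0.369 to 0.456 CPM in parental cells, 0.430 to 0.480 in clone 15 and 0.381 to 0.975 in clone 37. PSMB10 had 7, 0 and 0 counts in parental cells, 10, 6 and 5 in clone 15 and 1 in each library of clone 37. Of its exon bases 45.3% also belong to another gene on the same strand, where reads are dropped. PSMB11, the thymic subunit, had 0 counts in all 9 libraries, and PSMA8, the testis alpha subunit, had 1 count in clone 37 replicate 3 and 0 elsewhere. PSMB8, PSMB9 and PSMB10 made up 0.485%, 0.211% and 0.176% of the counts of PSMB5 to PSMB10 in the parental libraries, 0.221%, 0.246% and 0.265% in clone 15 and 0.378%, 0.252% and 0.448% in clone 37. The 95% exact (Clopper-Pearson) interval ran from 0.242% to 0.866% in parental replicate 1 and from 0.0570% to 0.409% in parental replicate 3, and covers counting error only. The groups overlapped in each comparison, with two-sided exact permutation p = 0.6 for clone 37 against parental cells, 1 for clone 15 against parental cells and 0.2 between the clones. The smallest p that 3 against 3 libraries allow is 0.1, so this test could not pass 0.05.

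Summed over its 15 genes, the 20S core was higher in each clone than in parental cells. The sums were 1155, 1409 and 1191 CPM in parental cells, 1649, 1628 and 1632 in clone 15 and 1518, 1451 and 1562 in clone 37. No clone library reached down to the highest parental one, replicate 2, and the clones did not overlap each other. The ratio of means was 1.21 for clone 37 and 1.31 for clone 15 against parental cells and 0.923 between the clones. The 19 genes of the 19S cap summed to 1823, 2119 and 1885 CPM in parental cells, 2357, 2307 and 2464 in clone 15 and 2322, 2235 and 2359 in clone 37. Those ratios were 1.19, 1.22 and 0.970, and the clones overlapped. The exact permutation p was 0.1, again the smallest possible, for all but the last (0.5). Adjusted over the 9 comparisons of summed levels and the immunoproteasome share, those exact p became 0.18 and 0.643.

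**Figure D3:**
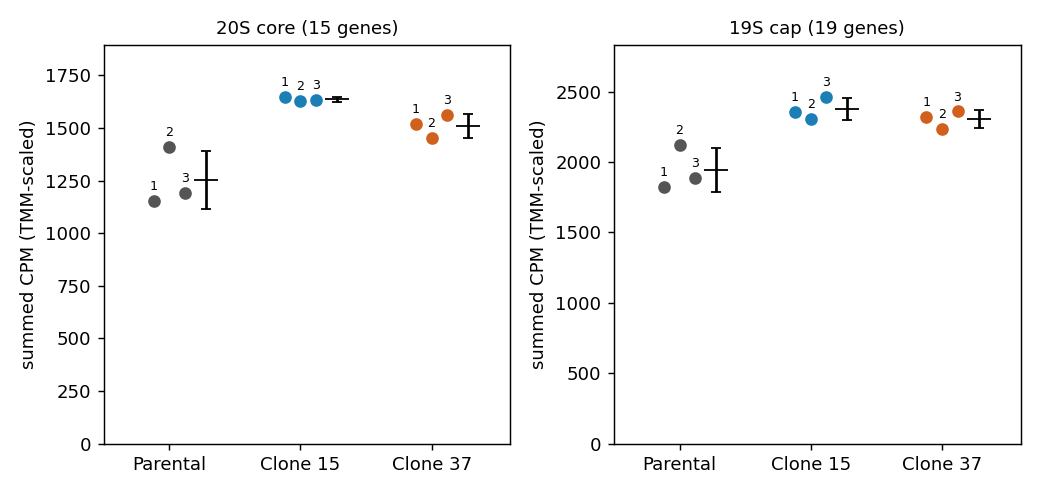
Summed CPM (y axis, from 0) of the 20S core genes and of the 19S cap genes; points are libraries numbered by replicate, bars the mean with 1 SD. The 20S sums lie at 1155 to 1409 in parental cells, 1628 to 1649 in clone 15 and 1451 to 1562 in clone 37, and parental replicate 2 is the highest parental library in both panels.

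In the ATPase ring of the 19S cap, 4 of 6 genes rose in clone 15 and PSMC2 fell (median 0.36), while in clone 37 PSMC2 and PSMC5 rose and PSMC4 fell (median 0.08). Between the clones PSMC2 was higher in clone 37 and the other 5 were lower (median -0.28). Against the genes around them 3 were lower and PSMC6 was higher (median -0.05), and PSMC2 in clone 15 turned to 0.22 (edgeR, adjusted p = 0.0289). PSMC3 had the highest parental level of the ring at 60.3 ± 10.8 CPM per kilobase, and PSMC1 the lowest at 10.7 ± 1.07. The transcript length used for PSMC1 was 4448 bp, beside 1579 to 3054 bp for the others. In CPM it was at 47.8 in parental cells, beside 67.4 for PSMC6. Of the 75-base words of PSMC1, 27.0% occur in another gene, so its unique reads may undercount it, and 25.8% of its 100-base words do.

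PSMC3 read 80.3, 114 and 91.4 CPM in parental cells, 152, 145 and 157 in clone 15 and 107, 99.8 and 112 in clone 37. Clone 15 stood above the rest, and clone 37 overlapped parental cells. Its rise in clone 15 was 0.66 ± 0.10 (edgeR, adjusted p = 8.95e-06), and in clone 37 it was at 0.16 ± 0.10 (adjusted p = 0.201). Relative to its neighbours PSMC3 was at 0.37 (edgeR, adjusted p = 0.00418) and -0.05 (adjusted p = 0.704), and with trends in GC content and length removed it was at 0.42 in clone 15 (adjusted p = 0.00990). PSMC4 read 68.6, 76.0 and 68.9 CPM in parental cells, 99.8, 94.5 and 100.2 in clone 15 and 60.7, 57.6 and 64.4 in clone 37. It thus lay above parental cells in one clone and below in the other, with no overlap. PSMC4 rose by 0.46 ± 0.08 in clone 15 (edgeR, adjusted p = 3.18e-05), fell by 0.22 ± 0.07 in clone 37 (adjusted p = 0.00809; 0.0596 without clone 37 replicate 2), and differed between the clones by -0.68 ± 0.06 (adjusted p = 2.62e-10). The genes around PSMC4 on chromosome 19 had medians of 0.13, -0.27 and -0.49 in those comparisons. Against them PSMC4 was at 0.34 (edgeR, adjusted p = 0.00133), 0.02 (adjusted p = 0.823) and -0.19 (adjusted p = 0.0127). Removal of GC and length trends left PSMC4 at 0.23 in clone 15 (adjusted p = 0.00959).

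Among the 13 non-ATPase genes of the cap, 7 rose in clone 37 with none lower (PSMD1, PSMD3, PSMD7, PSMD11, PSMD12, PSMD13 and ADRM1, median 0.19). In clone 15, 8 rose, while PSMD14 and SEM1 fell (median 0.23). PSMD4, a ubiquitin receptor, had the highest level of the 13 per kilobase (104 in parental cells) and was at -0.10 ± 0.06 in clone 37 and -0.02 ± 0.08 in clone 15, neither called. It was called lower in each with trends in GC content and length removed, by -0.19 (edgeR, adjusted p = 0.0246) and -0.25 (adjusted p = 0.00719). ADRM1, another ubiquitin receptor, rose by 0.52 ± 0.07 in clone 37 (edgeR, adjusted p = 3.49e-06) and by 0.50 ± 0.09 in clone 15 (adjusted p = 2.70e-05). Relative to the genes around it ADRM1 was at 0.34 (edgeR, adjusted p = 0.000669) and 0.24 (adjusted p = 0.0288), and removal of GC and length trends left 0.29 in clone 15 (adjusted p = 0.00319).

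PSMD7 showed the largest change of the 49 genes in clone 37. It encodes the partner that PSMD14 pairs with in the lid of the cap, at chr16:74296775-74306288 on the plus strand. It read 79.6, 87.8 and 78.8 CPM in parental cells, 82.4, 72.6 and 85.0 in clone 15 and 152.5, 146 and 159 in clone 37. Clone 37 lay far above both other groups, which overlapped. PSMD7 rose by 0.89 ± 0.06 in clone 37 (edgeR, adjusted p = 9.90e-10), was at -0.04 ± 0.08 in clone 15 (adjusted p = 0.712), and was higher in clone 37 than in clone 15 by 0.93 ± 0.06 (adjusted p = 4.39e-13). The genes around it had medians of 0.33, -0.25 and 0.54, and against them PSMD7 was at 0.54 (edgeR, adjusted p = 1.40e-06), 0.21 (adjusted p = 0.0459) and 0.39 (adjusted p = 5.45e-06).

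PSMD11 and PSMD3 are scaffold subunits of the lid. PSMD11 read 144, 163 and 151 CPM in parental cells, 208, 202 and 209 in clone 15 and 237, 231 and 240.2 in clone 37. PSMD3 read 117, 129.9 and 113 CPM in parental cells, 169, 187 and 203 in clone 15 and 195, 179 and 181 in clone 37. Both clones were above parental cells in every library for either gene. PSMD11 rose by 0.63 ± 0.06 in clone 37 and by 0.43 ± 0.08 in clone 15, and PSMD3 by 0.62 ± 0.06 and 0.63 ± 0.08, all with edgeR's adjusted p at or under 6.21e-05. Relative to the genes around them PSMD11 was at 0.39 and 0.30 and PSMD3 at 0.43 and 0.34 (edgeR, adjusted p at or under 0.00321).

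PSMD14, the metalloprotease that cuts ubiquitin off the substrate, read 71.7, 86.3 and 76.7 CPM in parental cells, 64.0, 58.5 and 60.0 in clone 15 and 77.5, 79.8 and 83.3 in clone 37. It was low in clone 15 alone. PSMD14 fell by 0.37 ± 0.09 in clone 15 (edgeR, adjusted p = 0.000843), was at 0.04 ± 0.07 in clone 37 (adjusted p = 0.662), and differed between the clones by 0.40 ± 0.06 (adjusted p = 3.90e-06). The direction in clone 15 turned under other treatments of the counts: the genes around PSMD14 on chromosome 2 had a median of -0.63, and against them it was at 0.27 (adjusted p = 0.0129). With trends in GC content and length removed, PSMD14 was at 0.04 (adjusted p = 0.704) in clone 15 and at 0.05 (adjusted p = 0.354) between the clones, where the value against its neighbours was 0.25 (adjusted p = 0.00144).

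PSME1 and PSME2, which form the interferon-inducible activator that caps the core in place of the 19S, were called in opposite directions in the clones against parental cells. PSME1 read 31.9, 36.6 and 33.3 CPM in parental cells, 44.7, 41.9 and 47.0 in clone 15 and 28.3, 26.3 and 27.8 in clone 37. PSME2 read 27.7, 29.9 and 31.8 CPM in parental cells, 34.3, 34.7 and 36.3 in clone 15 and 22.0, 21.1 and 22.7 in clone 37. For both genes the 3 groups were separate, with clone 15 highest and clone 37 lowest. PSME1 fell by 0.31 ± 0.08 in clone 37 (edgeR, adjusted p = 0.00344), rose by 0.38 ± 0.09 in clone 15 (adjusted p = 0.00106) and differed by -0.69 ± 0.08 between them (adjusted p = 1.18e-08). PSME2 fell by 0.44 ± 0.09 in clone 37 (adjusted p = 0.000329), rose by 0.23 ± 0.09 in clone 15 (adjusted p = 0.0432) and differed by -0.67 ± 0.08 (adjusted p = 4.15e-08). The pair lies on chromosome 14 (PSME1 at chr14:24136158-24138967), where the genes around them had medians of -0.41 and -0.40 in clone 37, 0.26 and 0.26 in clone 15 and -0.58 for each between the clones. Against those genes the differences between the clones were -0.11 and -0.09 (adjusted p = 0.247 and 0.371), PSME1 in clone 37 was at 0.09 (adjusted p = 0.432) and PSME2 at -0.06 (adjusted p = 0.615), and in clone 15 PSME1 was at 0.13 (adjusted p = 0.272) and PSME2 at -0.03 (adjusted p = 0.827). With trends in GC content and length removed, both were at 0.13 in clone 15 (edgeR, adjusted p = 0.206 and 0.187). The call for PSME2 in clone 15 was lost without clone 15 replicate 3 or any 1 of the parental libraries, with adjusted p from 0.0533 to 0.255.

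PSME3, the nuclear activator, rose by 0.40 ± 0.06 in clone 37 (edgeR, adjusted p = 3.85e-05) and by 0.43 ± 0.08 in clone 15 (adjusted p = 7.34e-05). Relative to its neighbours PSME3 was at 0.25 in clone 37 (edgeR, adjusted p = 0.00565) and 0.12 in clone 15 (adjusted p = 0.214), where the call was lost. PSMF1, which inhibits the core, rose by 0.62 ± 0.08 in clone 15 (adjusted p = 7.96e-07) and by 0.20 ± 0.07 in clone 37 (adjusted p = 0.0166; 0.0999 to 0.156 without replicate 1 or 3 of either group). Relative to its neighbours PSMF1 was at 0.23 in clone 15 (edgeR, adjusted p = 0.0257) and -0.08 in clone 37 (adjusted p = 0.401). PSME4, which encodes a large single-chain activator, read 210.2, 234 and 218 CPM in parental cells, 181, 159 and 173 in clone 15 and 228, 203 and 206 in clone 37. Clone 15 was the low group and the other two overlapped. PSME4 fell by 0.37 ± 0.08 in clone 15 (edgeR, adjusted p = 0.000425), but against the genes around it on chromosome 2, with a median of -0.58, it was at 0.21 (adjusted p = 0.0401), and in clone 37 at 0.36 (adjusted p = 0.000236). Removal of GC and length trends left PSME4 at -0.17 in clone 15 (edgeR, adjusted p = 0.0299). PSME3IP1, a partner of PSME3 taken in by its symbol, was at 0.20 ± 0.06 in clone 37 and -0.19 ± 0.08 in clone 15, the latter not called, and against its neighbours it was at -0.01 in clone 37 (edgeR, adjusted p = 0.935).

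Of the 8 assembly genes, 5 rose in clone 37 and PSMD10 fell (median 0.26), while POMP and PSMG1 rose in clone 15 and none fell (median 0.16). The clone 37 count was 3 without parental replicate 3, clone 37 replicate 1 or clone 37 replicate 3, and also against neighbours and with unstranded counts. In clone 15 only PSMG1 rose without parental replicate 1 or clone 15 replicate 1, and with trends in GC content and length removed the median was 0.01. PSMG1, which with PSMG2 starts the alpha ring, rose by 0.56 ± 0.07 in clone 37 (edgeR, adjusted p = 4.33e-06) and by 0.41 ± 0.09 in clone 15 (adjusted p = 0.000617), where it was at 0.24 against its neighbours (adjusted p = 0.0380). PSMG4, which pairs with PSMG3, read 36.4, 30.2 and 40.6 CPM in parental cells, 36.6, 37.3 and 33.0 in clone 15 and 49.8, 54.4 and 49.7 in clone 37. Clone 37 was above both other groups, which overlapped. PSMG4 was higher in clone 37 by 0.52 ± 0.10 against parental cells (edgeR, adjusted p = 0.000458) and by 0.53 ± 0.07 against clone 15 (adjusted p = 6.06e-07), where the genes around it on chromosome 6 had a median of 0.54 and left it at -0.01 (adjusted p = 0.884). Against parental cells PSMG4 was at 0.21 on that scale (edgeR, adjusted p = 0.0840).

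POMP, the chaperone that completes the core, read 43.6, 59.5 and 49.4 CPM in parental cells, 65.3, 56.3 and 60.2 in clone 15 and 62.7, 57.0 and 64.5 in clone 37. Parental replicate 2 overlapped each clone. POMP was called higher by 0.27 ± 0.09 in clone 37 (edgeR, adjusted p = 0.0142) and by 0.25 ± 0.10 in clone 15 (adjusted p = 0.0386). Neither call was firm: in clone 37 it was lost without replicate 1 or 3 of either group (adjusted p = 0.0593 to 0.129), and in clone 15 without clone 15 replicate 1 or parental replicate 1 or 3 (0.116 to 0.318) and with DESeq2 (0.0599). It was larger against its neighbours, at 0.37 and 0.39 (edgeR, adjusted p = 0.00306 and 0.00256), and in clone 15 with GC and length trends removed, at 0.48 (adjusted p = 0.000426).

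PSMD10 and PSMD5 are chaperones of the ATPase ring. PSMD10 read 82.3, 99.4 and 73.2 CPM in parental cells, 88.3, 79.4 and 77.6 in clone 15 and 63.6, 57.4 and 68.3 in clone 37. Clone 37 was below both other groups, which overlapped. It fell by 0.43 ± 0.09 in clone 37 (edgeR, adjusted p = 0.00159), where the genes around it on the X chromosome had a median of -0.49, and against those it was at 0.04 (adjusted p = 0.775). PSMD5 read 15.6, 16.0 and 16.2 CPM in parental cells, 14.1, 14.1 and 14.4 in clone 15 and 22.5, 18.3 and 19.4 in clone 37. Clone 37 was the high group, by 0.50 ± 0.10 over clone 15 (edgeR, adjusted p = 0.000109) and by 0.33 ± 0.10 over parental cells (adjusted p = 0.0110; 0.0877 without clone 37 replicate 1, and 0.213 against its neighbours, at 0.16). PSMD9, also a chaperone of that ring, was called in no comparison.

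Of the pair of transcription factors, NFE2L2 fell in each clone and NFE2L1 was called in neither. NFE2L1 read 151, 171 and 147 CPM in parental cells, 154, 166 and 171 in clone 15 and 151, 139 and 146 in clone 37. The parental libraries overlapped those of each clone. NFE2L1 was at -0.10 ± 0.06 in clone 37 (edgeR, adjusted p = 0.159) and 0.06 ± 0.08 in clone 15 (adjusted p = 0.537), and was lower in clone 37 than in clone 15 by -0.17 ± 0.06 (adjusted p = 0.0130; 0.109 without clone 37 replicate 2). That call was lost against neighbours (-0.01, adjusted p = 0.883) and with trends in GC content and length removed (-0.03, adjusted p = 0.568). Against the genes around it NFE2L1 was called lower in clone 37 than in parental cells, by -0.28 (edgeR, adjusted p = 0.00202). Its protein is regulated by cleavage and turnover, which RNA counts do not measure. NFE2L2 lies at chr2:177227595-177392697 on the minus strand. It read 68.1, 77.7 and 64.8 CPM in parental cells, 45.9, 38.8 and 48.0 in clone 15 and 44.2, 41.7 and 44.0 in clone 37. Every library of the clones was below every parental library. NFE2L2 fell by 0.70 ± 0.07 in clone 37 (edgeR, adjusted p = 2.90e-07) and by 0.67 ± 0.09 in clone 15 (adjusted p = 1.70e-06), the largest fall of the 49 genes against parental cells in each. The genes around NFE2L2 had medians of -0.51 and -0.58, and against them it was at -0.21 in clone 37 (edgeR, adjusted p = 0.0303) and -0.09 in clone 15 (adjusted p = 0.464).

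Values of neighbouring genes moved with those of the proteasome genes on several chromosomes. Neighbours are the 100 tested genes nearest in order along the chromosome. Their median entered the fit as a fixed offset, so each adjusted p against neighbours leaves out its error and the spread among them. All 7 tested genes on chromosome 14 (PSMA3, PSMA6, PSMB5, PSMC1, PSMC6, PSME1 and PSME2) were lower in clone 37 than in clone 15, with a median of -0.55, and the median of their neighbours was -0.46; against its own neighbours PSMC6 was instead higher in clone 37, by 0.21 (edgeR, adjusted p = 0.00889). On chromosome 2, PSMD14, PSME4 and NFE2L2 fell in clone 15 and PSMD1 was at -0.01, with a median of -0.37 beside -0.58 for neighbours. Chromosome 17 holds 8 members, of which 7 rose in each clone and NFE2L1 was not called, with medians of 0.40 in clone 37 and 0.52 in clone 15 beside 0.17 and 0.23 for neighbours. On chromosome 20, ADRM1, PSMA7 and PSMF1 rose in each clone.

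Over all 49 genes, 41 lay above the median of their own neighbours in clone 37 and 43 in clone 15, by a median of 0.23 and 0.22. Between the clones 25 lay above, by a median of 0.01. Over all genes tested the median of that difference was 0.003, 0.0005 and 0.001 in these comparisons. The share of all genes that lay above their neighbours was not counted. With each gene tested against its neighbours, 26 were higher and 3 lower in clone 37 against parental cells, and 27 higher and 0 lower in clone 15. On that scale 18.3% of all genes tested were higher and 24.2% lower in clone 37 (42.5% called), and 20.2% and 22.2% in clone 15 (42.4% called). Between the clones 11 were higher and 12 lower in clone 37, beside 25.3% and 25.5% of all genes (50.8% called). The sign changed for 15, 11 and 13 of the 49 genes in these comparisons. Of the calls kept, 8, 10 and 3 were smaller by over 1.5 times on the log2 scale. The genes called were not the same ones: of the 30 calls in clone 37, 18 were kept, 12 lost and 11 others gained, and of the 35 in clone 15, 20 were kept, 12 lost, 3 turned and 4 others gained. The 8 higher calls lost in clone 37 were those of PSMB3, PSMB6, PSMC2, PSMD5, PSMD13, PSME3IP1, PSMF1 and PSMG4. The 9 lost in clone 15 were those of PSMA4, PSMB1, PSMB2, PSMC1, PSMD12, PSMD13, PSME1, PSME2 and PSME3. Between the clones 15 of 36 calls were lost, those of NFE2L1, PSMA3, PSMA5, PSMA6, PSMB4, PSMB5, PSMC1, PSMC2, PSMD2, PSMD10, PSME1, PSME2, PSME4, PSMG4 and SEM1. Of the 5 genes called lower in clone 37 at first, PSMC4, PSMD10, PSME1 and PSME2 lost the call, and all 6 called lower in clone 15 either lost it (NFE2L2, PSMA2 and SEM1) or turned (PSMC2, PSMD14 and PSME4). The part of chromosome neighbourhoods in the results was not tested beyond these values.

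**Figure D4:**
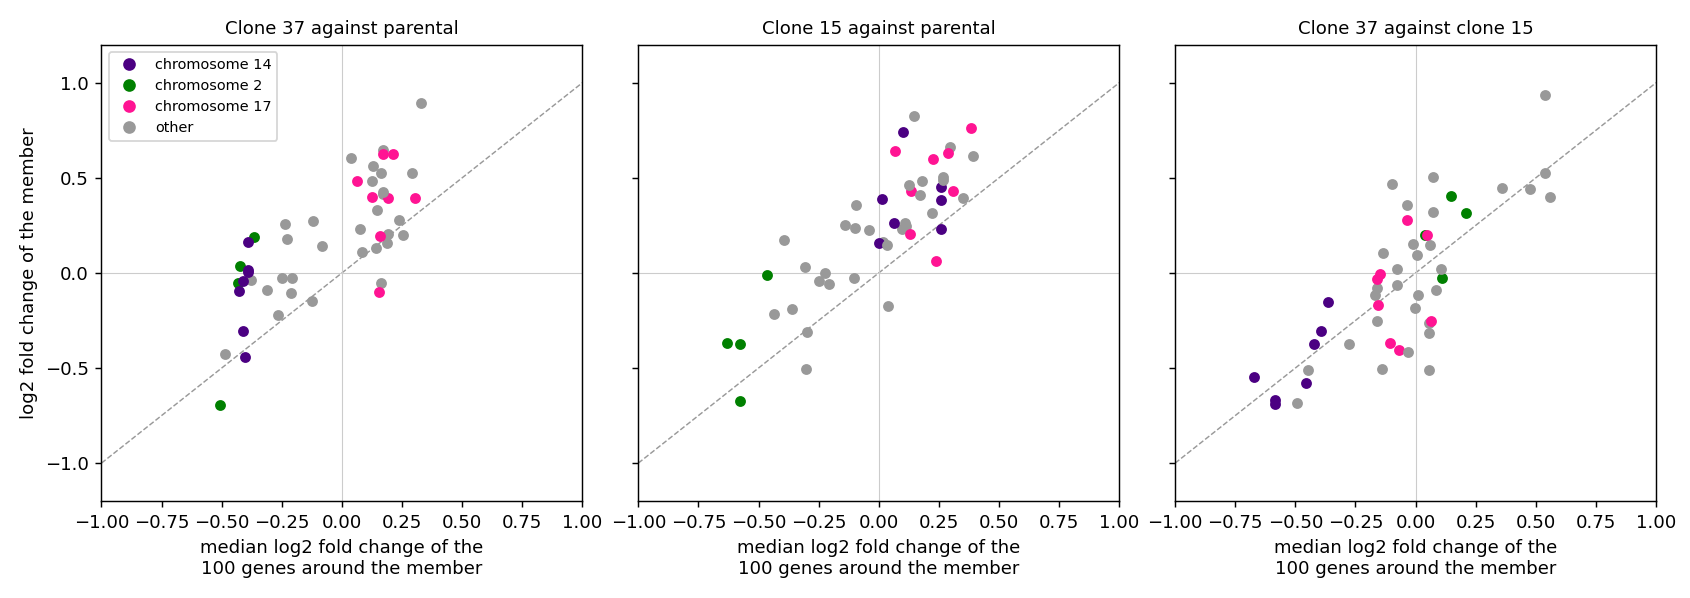
Log2 fold change of each tested gene (y axis) against the median of 100 tested neighbours (x axis) for each of the 3 comparisons; the dashed line marks equal values. Against parental cells 41 points in clone 37 and 43 in clone 15 lie above the line. Between the clones 25 of 49 do, with chromosome 14 at the lower left. The share of all genes above the line was not counted.

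Other genes of the ubiquitin pathway were taken as a list of 35 that hold ubiquitin itself, its conjugation, shuttling and proteasome-bound enzymes and the processing of NFE2L1. In clone 37, 15 of 35 rose and 7 fell (42.9% and 20% of the list, median 0.14), beside 26.7% and 27.3% of all genes. In clone 15, 11 rose and 12 fell (31.4% and 34.3%, median 0.08), beside 25.1% and 26.2%. Between the clones 13 were higher and 6 lower in clone 37 (37.1% and 17.1%), beside 28.7% and 29.0%. DDI2, the protease that cleaves NFE2L1 to its active form, read 115, 129.6 and 115 CPM in parental cells, 160.1, 159.9 and 173 in clone 15 and 196, 202 and 207 in clone 37. The 3 groups were separate. DDI2 rose by 0.76 ± 0.06 in clone 37 (edgeR, adjusted p = 7.90e-09) and by 0.45 ± 0.08 in clone 15 (adjusted p = 3.90e-05), with neighbours at 0.32 and 0.46. Against them DDI2 was at 0.41 (edgeR, adjusted p = 4.41e-05) and -0.01 (adjusted p = 0.959). NGLY1, which strips sugars from NFE2L1, fell by 0.32 ± 0.07 in clone 37 (edgeR, adjusted p = 0.000862) and by 0.28 ± 0.08 in clone 15 (adjusted p = 0.00819). MAFG, a small partner protein of NFE2L1 and NFE2L2, rose by 0.62 ± 0.08 in clone 37 (edgeR, adjusted p = 2.60e-06) and by 0.54 ± 0.09 in clone 15 (adjusted p = 1.77e-05). In clone 15 both calls were lost against neighbours (NGLY1 at -0.14, edgeR, adjusted p = 0.193, and MAFG at 0.15, adjusted p = 0.183), and NGLY1 was at 0.04 (adjusted p = 0.695) with GC and length trends removed. In clone 37 NGLY1 was at -0.20 (edgeR, adjusted p = 0.0312) and MAFG at 0.40 (adjusted p = 0.000355) against neighbours.

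HERPUD1, a component of degradation at the endoplasmic reticulum, read 71.5, 83.8 and 74.6 CPM in parental cells, 36.9, 34.3 and 36.2 in clone 15 and 41.0, 41.2 and 44.0 in clone 37. It was low in both clones with no overlap, by -0.86 ± 0.07 in clone 37 (edgeR, adjusted p = 1.52e-08) and -1.10 ± 0.09 in clone 15 (adjusted p = 1.46e-10). Against its neighbours HERPUD1 was at -1.08 and -0.72 (edgeR, adjusted p = 1.43e-09 and 2.80e-07). MAFF, another small Maf, fell by 1.30 ± 0.29 in clone 15 (adjusted p = 0.000563) and by 0.71 ± 0.29 in clone 37 (adjusted p = 0.0469; 0.0767 to 0.183 without clone 37 replicate 1 or 3 or parental replicate 1 or 2), from 3.37 ± 0.885 CPM in parental cells, whose libraries overlapped those of clone 37. Its clone 37 call was also lost against neighbours (-0.49, edgeR, adjusted p = 0.180). RPS27A, which encodes ubiquitin fused to a ribosomal protein, fell by 0.42 ± 0.08 in clone 37 and by 0.63 ± 0.10 in clone 15, with neighbours at -0.43 and -0.58, and against them both calls were lost (-0.02 and -0.05, edgeR, adjusted p = 0.888 and 0.718).

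VCP, the segregase that pulls ubiquitinated proteins out of complexes, was 305 ± 31.6 CPM in parental cells (SD, n = 3), 451 ± 11.6 in clone 15 and 286 ± 3.76 in clone 37. It rose by 0.56 ± 0.09 in clone 15 (edgeR, adjusted p = 8.49e-06), and its cofactor NPLOC4 by 0.60 ± 0.08 (adjusted p = 8.25e-07). UBE3C, a ligase bound to the proteasome, fell by 0.77 ± 0.06 in clone 37 (adjusted p = 3.76e-09), where its neighbours on chromosome 7 had a median of -0.91. STUB1, the ligase that works with chaperones, rose by 0.56 ± 0.06 in clone 37 (adjusted p = 9.68e-07) and was at -0.25 ± 0.09 in clone 15 (adjusted p = 0.0277; 0.111 to 0.184 without clone 15 replicate 1 or 3 or parental replicate 2). Between the clones STUB1 was higher in clone 37 by 0.81 ± 0.07, and so were UCHL5, a deubiquitinase of the cap, by 0.62 ± 0.06 and UBE3A by 0.46 ± 0.06. Lower in clone 37 than in clone 15 were UBE3C by -0.86 ± 0.05, VCP by -0.65 ± 0.05 and UBB by -0.47 ± 0.05. The edgeR adjusted p was 2.13e-10 for UCHL5, 7.84e-08 for UBE3A and 5.87e-09 for UBB. Against their neighbours VCP and NPLOC4 were at 0.30 and 0.21 in clone 15 (edgeR, adjusted p = 0.00709 and 0.0332). On that scale UBE3C in clone 37 was at 0.12 (adjusted p = 0.139), STUB1 was at 0.20 in clone 37 (adjusted p = 0.0239) and -0.16 in clone 15 (adjusted p = 0.162), and STUB1 between the clones was at 0.34 (adjusted p = 0.000639). The differences between the clones were lost for UBE3C (-0.01, adjusted p = 0.848) and VCP (-0.05, adjusted p = 0.398) and kept for UCHL5 (0.59), UBE3A (0.50) and UBB (-0.49). With GC and length trends removed those of UCHL5 and UBE3A were 0.34 and 0.30 (edgeR, adjusted p = 3.89e-08 and 4.59e-07), and STUB1 in clone 15 was at -0.44 (adjusted p = 0.000178).

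Leaving out each library in turn, 20 of the 30 calls among the proteasome genes held throughout in clone 37 (16 higher, 4 lower), 23 of 35 in clone 15 (20 higher, 3 lower) and 31 of 36 between the clones (14 higher, 17 lower). Besides those given above, the calls lost at least once in clone 37 were those of PSMA5, PSMB3, PSMC2, PSMD1, PSME3IP1 and PSMG2, with adjusted p up to 0.31. In clone 15 they were those of PSMA4, PSMB1, PSMB2, PSMB4, PSMC1, PSMC2, PSMD6, PSMD12 and SEM1, up to 0.267, and between the clones those of PSMA5, PSMC6 and PSMG3, up to 0.341. The libraries whose absence ended the most calls were parental replicate 3 and clone 37 replicate 3 in clone 37 against parental cells (8 calls each), parental replicate 1 in clone 15 (10 calls), and clone 37 replicates 1 and 2 between the clones (3 calls each). No called proteasome gene turned in direction without any 1 library. Of the calls among the 35 further genes, 13 of 22 held throughout in clone 37 (8 higher, 5 lower), 17 of 23 in clone 15 (9 higher, 8 lower) and 14 of 19 between the clones (8 higher, 6 lower).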

How the data were processed

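Total RNA of HEK293T cells was sequenced as paired ends after ribosomal RNA depletion with a directional kit, per the labels' protocols. The authors deposited raw read counts per gene, 1 file per library, in the layout of STAR's gene counts, with 4 summary entries that name no gene and were left out. FastQC 0.11.9, STAR 2.7.10a and hg38 come from the submitters' processing notes, and the annotation release is not given in the sources used here. Multimapping and ambiguous reads do not enter such counts. The counts came from column 4, with 92.6% to 94.0% of all stranded counts. Of the read pairs of a library, 19.2% to 34.6% had no annotated exon on that strand.

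Positions, gene types and transcript lengths came from GENCODE 29 (58496 of 60683 IDs matched). Each pair of groups was fitted on its 6 libraries with edgeR 4.0.16 in R 4.3.3 (filterByExpr, TMM, glmQLFit with robust estimation, glmQLFTest), with Benjamini-Hochberg adjustment over all genes tested. The standard error is the size of the log2 fold change divided by the root of F. The procedure was tested on simulated data. Summed levels and the immunoproteasome share were compared with two-sided exact permutation tests over libraries (scipy 1.17.1). Levels per kilobase used the principal transcript's length. Intervals and floors of 3 counts cover counting error only. No replicates were alike enough to be 1 library deposited more than once.

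The proteasome genes, the 35 further genes and the other lists were chosen with earlier results of these data known. Library values and full statistics were given for the 4 genes with the largest rise and the 4 with the largest fall in each comparison, among called genes with at least 5 CPM and groups that did not overlap. They were also given for PSMB5 to PSMB10, PSMD14, POMP, NFE2L1 and NFE2L2, with counts or shares in place of a test where a gene was too low. The further genes named are the 3 and 3 called genes with the largest change in each comparison, with no minimum level, and most are given without library values. ADRM1, PSMA7, PSMG1, PSMF1, PSME3 and NGLY1 were added after their values were seen. Alternatives were RLE size factors, DESeq2 1.42.0, no filter and a filter at 1 CPM, unstranded counts, 1 fit of all 9 libraries, a replicate block, protein-coding genes only, offsets for chromosome neighbours and for GC content and length, plain CPM, levels per kilobase, and each library left out.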

Additional observations from a re-analysis of the deposited data

Results flagged for a closer look

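PSMC2, PSMC4, PSME1 and PSME2 were called in opposite directions in the clones against parental cells, and the difference itself was tested between the clones with edgeR. The log2 fold change of clone 37 against clone 15 was 0.4469 for PSMC2 (adjusted p = 5.21e-07), -0.6828 for PSMC4 (adjusted p = 2.62e-10), -0.69 for PSME1 (adjusted p = 1.18e-08) and -0.6703 for PSME2 (adjusted p = 4.15e-08). PSMC2, an ATPase of the 19S cap, read 85.3, 98.0 and 86.0 CPM in parental cells, 80.5, 76.3 and 75.5 in clone 15 and 99.3, 103 and 114 in clone 37, with the 3 groups apart. PSMC2 was at 0.23 ± 0.07 in clone 37 (adjusted p = 0.00599, 0.0746 without parental replicate 3 and 0.148 without clone 37 replicate 3) and at -0.22 ± 0.08 in clone 15 (adjusted p = 0.0290, and 0.0553 to 0.105 without clone 15 replicate 2 or 3 or parental replicate 2). The 4 differences between the clones kept their call without any 1 library. The genes around PSMC2, PSMC4, PSME1 and PSME2 on their chromosomes had medians of 0.36, -0.49, -0.58 and -0.58 in the same comparison. Against those genes the calls of PSMC2, PSME1 and PSME2 were lost and PSMC4 was at -0.19 (adjusted p = 0.0127). On that scale none of the 4 was called in opposite directions in the clones against parental cells. PSMC2 was at 0.22 in clone 15 (adjusted p = 0.0289) and 0.13 in clone 37 (adjusted p = 0.132), PSMC4 was at 0.02 in clone 37 (adjusted p = 0.823), and PSME1 and PSME2 were called in neither clone. With trends in GC content and length removed, the clone 15 calls of PSMC2 (0.03, adjusted p = 0.755), PSME1 (0.13, adjusted p = 0.206) and PSME2 (0.13, adjusted p = 0.187) were lost. Read length was 100 bp in clone 15 and 75 bp in clone 37, and its part was not tested.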

How the results depend on the processing

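Over the alternatives, most counts and medians stayed within 1.5 times or within the spread between libraries. With offsets for chromosome neighbours, genes called lower became 3 in place of 5 in clone 37 and 0 in place of 6 in clone 15, each against parental cells. Between the clones 12 in place of 21 were lower and 23 in place of 36 were called, and the median turned from -0.0793 to 0.0113. The sign changed for 15, 11 and 13 of the 49 genes in these comparisons. Examples are PSMB5 (0.3116), PSMD10 (0.0392), PSME1 (0.0853), PSMC4 (0.02) and PSME4 (0.36) in clone 37 against parental cells, PSMD14 (0.2678), PSME4 (0.2061), PSME2 (-0.03) and PSMD7 (0.21) in clone 15 against parental cells, and PSMB5 (0.1219) and PSMG4 (-0.0149) between the clones. PSMC2 (0.22) in clone 15, and PSMC6 (0.21) and PSME3IP1 (-0.17) between the clones, turned with a call. Removing trends in GC content and length gave 8 genes lower in clone 37 against parental cells, ended the calls of PSMB3 and PSMG2 there and of NFE2L1, PSMA5, PSMB7, PSMD12, PSMD14, PSMG3 and SEM1 between the clones, ended the clone 15 calls of PSMA2, PSMA7, PSMB4, PSMC2, PSMD8, PSMD14, PSME1, PSME2 and SEM1, turned PSMD14 to 0.0377 in clone 15 and turned POMP to -0.2388 between the clones. Per kilobase, the log2 ratio of the 20S sums between the clones was -0.2205 in place of -0.1154. The cause was not tested in any of these.

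Without 1 library at a time, genes called ranged from 22 to 33 in clone 37 against parental cells, 25 to 35 in clone 15 against parental cells and 33 to 37 between the clones, and medians from 0.14 to 0.23, 0.17 to 0.33 and -0.11 to -0.06. The log2 ratio of the 20S sums ranged from 0.22 to 0.36 in clone 37 and 0.33 to 0.48 in clone 15 against parental cells, and that of the immunoproteasome share from 0.05 to 0.89 in clone 37 and -0.51 to 0.34 in clone 15 against parental cells and 0.37 to 0.76 between the clones. DESeq2 kept 25 of 30, 33 of 35 and 34 of 36 calls. Unstranded counts kept 22, 27 and 33 of them. With those counts 17 genes in place of 25 were higher in clone 37 against parental cells, and 21 in place of 29 in clone 15. The medians of the 3 comparisons were then 0.13, 0.17 and -0.04.

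The labels number replicates 1 to 3 in each group but do not say that a number marks a shared day or culture. Deviations of same-numbered libraries correlated between -0.185 and 0.023, so the numbers were not taken to pair them. With the replicate block 29, 33 and 37 genes were called; PSMA5 lost its call in clone 37, POMP and PSMD12 lost theirs in clone 15, and PSMG1 gained one between the clones. PSMA8 and PSMB8 to PSMB11 had too few counts to be tested.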
